A study of Mus musculus with 19 samples.

Results

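Ketone body synthesis and use was examined through 6 genes, Bdh1, Bdh2, Oxct1, Acat1, Slc16a1 and Slc16a6, of the 55487 genes counted in small intestinal crypts of mice. The genes were chosen by symbol, as genes known to make, break down or carry ketone bodies. No measured value entered the rule, but earlier results of these data were known when the genes were chosen. RNA was sequenced from 19 C57BL/6 mice of both sexes, 1 library per mouse. Ad libitum feeding was given to 5 Nt+/+ mice and 4 Nt-/- mice, and a fast of 48 hours to 5 mice of each genotype. Nt-/- mice lack neurotensin, a gut hormone released on feeding, in every tissue, so an effect of genotype need not arise in the crypt. The labels give no age and no allele besides Nt. The study describes its fed and fasted mice of both genotypes as Lgr5-EGFP mice, and its methods name the Lgr5-EGFP-IRES-CreERT2 reporter. Those methods also state an age range in weeks for the fasting studies, without an age for each mouse. Crypts came from the upper part of the small intestine after EDTA treatment and were not sorted, so each library is a mixture of cells. In such bulk RNA, fewer cells of a type and less RNA per cell cannot be told apart.

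Ketone bodies are small fuels that are made from fatty acids in mitochondria when carbohydrate is scarce, mostly in liver. The beta-hydroxybutyrate dehydrogenase encoded by Bdh1 interconverts acetoacetate and beta-hydroxybutyrate. A cell that burns ketone bodies needs the transferase encoded by Oxct1 and then the thiolase encoded by Acat1, and monocarboxylate transporters of the Slc16 family carry ketone bodies across membranes. The gut epithelium is exposed to ketone bodies from blood.

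Neurotensin RNA, read first as a check of the labels, averaged 7.82 ± 0.773 CPM (SD, n = 5; CPM are counts scaled by normalized library size) in fed Nt+/+ mice and 0.314 ± 0.29 (n = 4) in fed Nt-/- mice, a log2 difference of -4.70 (edgeR quasi-likelihood test, Benjamini-Hochberg adjusted p = 5.82e-07). In fasted mice the level of Nts was 5.42 ± 0.267 CPM (n = 5) in Nt+/+ and 0.433 ± 0.23 CPM (n = 5) in Nt-/- mice (log2 difference -3.56, adjusted p = 1.36e-05). The titles and the genotype field disagree for 1 mouse, fasted Nt+/+ mouse 5. Its Nts level of 5.43 CPM lay within the Nt+/+ range of 4.98 to 8.59 CPM, and no Nt-/- mouse exceeded 0.793 CPM. The Nts level of this mouse thus goes with its title and not with its genotype field. Total counts per mouse ran from 9059457 to 35068711, and fasted Nt-/- mice 2 and 4 had the lowest totals. The summed level of 4 epithelial markers was 4530 to 6020 CPM in every mouse, against 0.384 to 5.65 CPM for 5 stromal markers. The 6 lymphocyte and other immune markers summed to 288 to 842 CPM, of which Cd74 alone averaged 378 to 618 CPM in the groups. Of the 6 genes, 5 passed the filter on low counts and were tested among 17875 genes, with between 414 and 5707 counts in every mouse.

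Fasting lowered Oxct1 and Bdh1 and raised Slc16a6 in crypts of both genotypes. In the main fit, which did not pair the mice, Acat1 and Slc16a1 did not pass the test, and Bdh2 was too low to test. Slc16a1 passed in Nt-/- mice once the file number entered as a replicate block, as given below. In Nt+/+ mice, 3 of the 5 tested genes passed an adjusted p of 0.05, where 21.6% of all tested genes did. Of these, 2 were lower, as were 10.4% of all genes, and 1 was higher, as were 11.2%. In Nt-/- mice the same 3 genes were called, against 25.2% of all tested genes (12.6% lower and 12.5% higher). Fed and fasted mice did not overlap for 2 of the 5 genes in Nt+/+ (14.6% of all genes) and for 3 of the 5 in Nt-/- (21.3% of all genes). The median log2 fold change over the 5 genes was -0.18 in Nt+/+ and -0.23 in Nt-/- mice, against -0.009 and -0.022 over all tested genes.

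**Figure D1:**
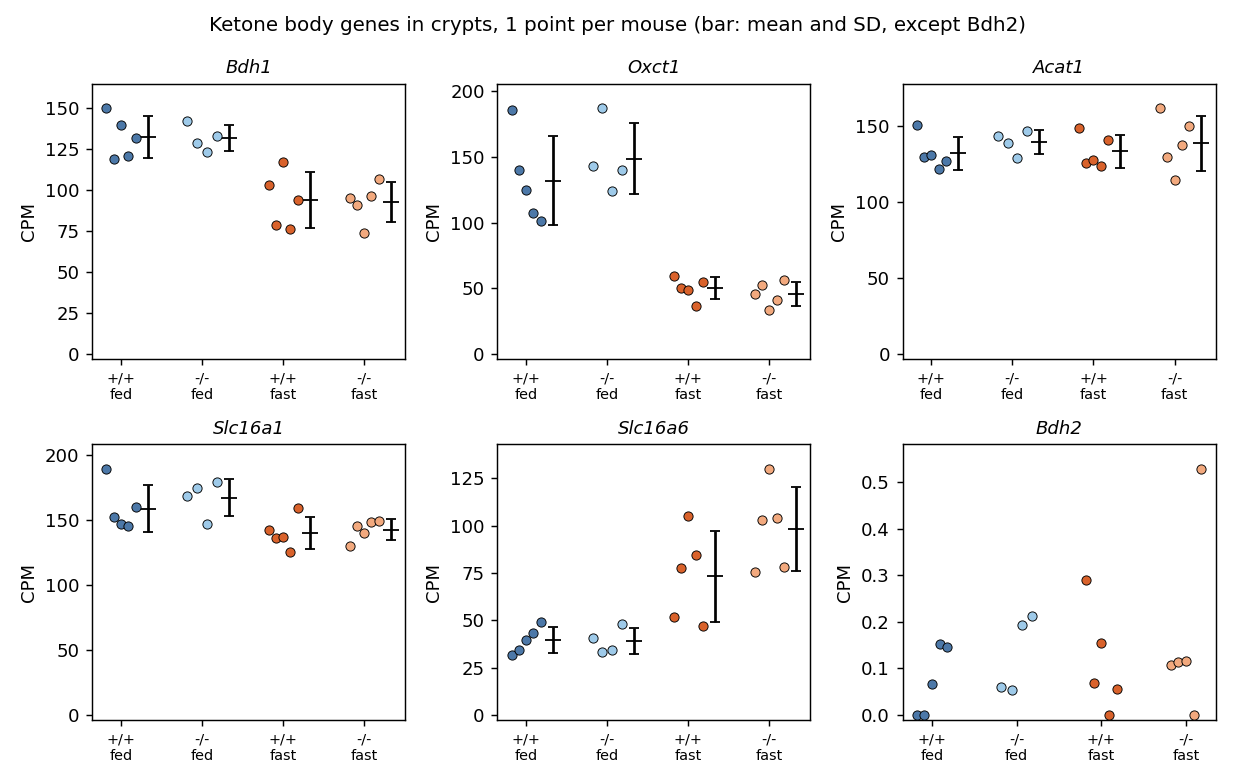
Level of each gene in CPM (vertical axis, including 0) in the 4 groups, 1 point per mouse, with the mean and SD of the group beside the points (none for Bdh2). All fasted mice sit below all fed mice for Bdh1 and Oxct1, Slc16a6 is higher in fasted mice with overlap in Nt+/+, and Bdh2 stays at or under 0.528 CPM.

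Because Bdh1 and Oxct1 moved the same way, the bases before their start sites are shown. Those of Slc16a1, which did not pass in the main fit, are shown as well. The RefSeq promoter table (GRCm38.p6) matched 4 of the 6 genes, Bdh1 with 2 windows, Bdh2, Oxct1 and Slc16a1. Acat1 and Slc16a6 were not matched. The windows hold the 250 bases before a start site, cut here where the annotated gene begins, and all lie on the plus strand. They are chr15:4026178-4026382 for Oxct1, chr16:31422047-31422279 for the first Bdh1 window and chr3:104638414-104638663 for Slc16a1. Capitals mark the only motif found.
Oxct1: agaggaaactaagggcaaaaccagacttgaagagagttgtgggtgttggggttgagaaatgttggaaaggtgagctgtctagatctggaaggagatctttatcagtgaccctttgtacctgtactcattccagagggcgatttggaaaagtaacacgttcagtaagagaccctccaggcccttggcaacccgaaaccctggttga
Bdh1: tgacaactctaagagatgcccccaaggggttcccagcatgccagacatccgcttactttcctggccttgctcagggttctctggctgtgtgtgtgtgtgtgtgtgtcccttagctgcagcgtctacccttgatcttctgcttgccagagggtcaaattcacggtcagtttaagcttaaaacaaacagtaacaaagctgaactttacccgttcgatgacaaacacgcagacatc
Slc16a1: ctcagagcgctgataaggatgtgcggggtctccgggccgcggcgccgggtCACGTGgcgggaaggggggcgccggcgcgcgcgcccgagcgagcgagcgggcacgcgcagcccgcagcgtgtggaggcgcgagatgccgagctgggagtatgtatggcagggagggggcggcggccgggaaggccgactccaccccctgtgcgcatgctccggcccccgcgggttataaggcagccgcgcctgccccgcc

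Both strands of the uncut 250 bases were searched for AGGTCA, the half-site of nuclear receptors, for the PPAR element made of a direct repeat of that half-site with 1 base between (DR1), for TGACGTCA (the cAMP response element), for CACGTG (an E-box) and for TGTTTAC (the FOXO and FOXA core). Of these motifs, the DR1 contains the half-site, and none of the others contains another. The Slc16a1 window held CACGTG starting 200 bases before the start site, and 6.02% of the 32851 windows in the table hold CACGTG at some place. None of the other 4 windows of these genes held any of the motifs, even with 1 mismatch allowed in the DR1. Over the whole table AGGTCA was found in 14.0% of windows, TGACGTCA in 1.55%, TGTTTAC in 3.17% and the DR1 in 0.0335%, or 0.484% with 1 mismatch. The Slc16a1 window had 37 CpG dinucleotides and 76.4% G and C, whereas the window of Oxct1 and the first window of Bdh1 had 6 and 7 CpG, near the table's median of 6. The second Bdh1 window, chr16:31428503-31428752, lies inside the annotated gene and is not printed, and it had 9 CpG and 60.8% G and C. These letters describe the windows and say nothing about binding.

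Oxct1 encodes the transferase that activates acetoacetate with CoA, the committed step of ketone body use, and lies at chr15:4026383-4155344 (GRCm38, plus strand, ENSMUSG00000022186). Its level was 186, 140, 125, 107 and 101 CPM in the 5 fed Nt+/+ mice and 59.4, 50.6, 48.8, 36.8 and 54.9 CPM in the 5 fasted Nt+/+ mice. All fasted mice lay below the lowest fed mouse. The mean fell from 132 ± 33.9 to 50.1 ± 8.5 CPM, a 2.63-fold lower level with a log2 fold change of -1.39 (SE 0.17, 95% interval -1.75 to -1.04, edgeR adjusted p = 1.14e-05). Oxct1 in Nt-/- mice was 143, 187, 124 and 140 CPM when fed and 45.4, 52.3, 33.7, 40.8 and 56.2 CPM when fasted. Here too the groups did not overlap. The mean fell from 149 ± 27.3 to 45.7 ± 8.97 CPM, 3.25-fold lower, with a log2 fold change of -1.70 (SE 0.18, 95% interval -2.08 to -1.33, edgeR adjusted p = 2.12e-06).

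Mice whose file names share a number form sets, of which 5 hold a fed and a fasted Nt+/+ mouse and 4 a fed and a fasted Nt-/- mouse. Oxct1 was lower in the fasted mouse in 5 of 5 Nt+/+ sets, by 1.83-fold to 3.13-fold, and in 4 of 4 Nt-/- sets, by 2.49-fold to 3.58-fold. Since fed and fasted mice did not overlap, any pairing would give these counts of sets, so the counts add no support of their own. Oxct1 shares 467 exon bases with BC037032, a transcript on the opposite strand, which averaged 0.672 to 1.07 CPM in the 4 groups. The setting for strand in the counting is not given in the sources used here.

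Bdh1 encodes the mitochondrial enzyme that converts acetoacetate to beta-hydroxybutyrate and back, and lies at chr16:31422280-31458901 (plus strand, ENSMUSG00000046598). Its level was 150, 119, 140, 121 and 132 CPM in fed and 103, 78.7, 117, 76.5 and 94.1 CPM in fasted Nt+/+ mice. The highest fasted mouse was just under the lowest fed mouse, so the groups did not overlap but came close. The log2 fold change was -0.49 (SE 0.11, 95% interval -0.73 to -0.26, edgeR adjusted p = 0.00346), from 132 ± 13.1 to 93.9 ± 17 CPM. Bdh1 in Nt-/- mice was 142, 129, 123 and 133 CPM when fed and 95.3, 91.2, 73.7, 96.2 and 107 CPM when fasted. Every fasted mouse was again below every fed one. The log2 fold change was -0.51 (SE 0.12, 95% interval -0.75 to -0.26, edgeR adjusted p = 0.00339), from 132 ± 8.13 to 92.6 ± 12 CPM. Within the numbered sets Bdh1 was lower in the fasted mouse in 5 of 5 Nt+/+ sets, by 1.2-fold to 1.58-fold, and in 4 of 4 Nt-/- sets, by 1.25-fold to 1.49-fold. These counts of sets likewise follow from the lack of overlap between fed and fasted mice. Bdh1 shares 533 exon bases with the antisense gene Gm15743, which averaged 1.16 to 1.27 CPM in the groups of these comparisons.

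Acat1 encodes the mitochondrial thiolase that splits acetoacetyl-CoA at the end of ketone body use, makes it at the start of ketone body synthesis, and also acts in isoleucine breakdown (chr9:53580522-53610382, minus strand, ENSMUSG00000032047). Acat1 was 151, 130, 131, 122 and 127 CPM in fed and 149, 126, 128, 124 and 141 CPM in fasted Nt+/+ mice. The Nt-/- mice had 144, 139, 129 and 147 CPM of Acat1 when fed and 162, 130, 115, 138 and 150 CPM when fasted. Fed and fasted mice overlapped throughout. The log2 fold change was 0.01 (SE 0.09, 95% interval -0.17 to 0.19, edgeR adjusted p = 0.932) in Nt+/+ and -0.01 (SE 0.09, 95% interval -0.20 to 0.18, edgeR adjusted p = 0.969) in Nt-/- mice. These intervals leave out a change of Acat1 as large as that of Bdh1 or Oxct1.

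Slc16a1 encodes MCT1, the widely expressed proton-coupled transporter of lactate, pyruvate and ketone bodies (chr3:104638668-104658462, plus strand, ENSMUSG00000032902). It was 189, 152, 147, 145 and 160 CPM in fed and 142, 136, 137, 125 and 159 CPM in fasted Nt+/+ mice. Only fasted mouse 5 lay within the fed range. In Nt-/- mice Slc16a1 was 168, 174, 147 and 179 CPM when fed and 130, 145, 140, 148 and 149 CPM when fasted, with the lowest fed mouse among the fasted ones. The log2 fold change was -0.18 (SE 0.08, 95% interval -0.35 to -0.01, edgeR adjusted p = 0.115) in Nt+/+ and -0.23 (SE 0.09, 95% interval -0.41 to -0.05, edgeR adjusted p = 0.0548) in Nt-/- mice, and neither passed. Within the numbered sets Slc16a1 was lower in the fasted mouse in 5 of 5 Nt+/+ sets, by 1.01-fold to 1.33-fold, and in 3 of 4 Nt-/- sets. The Nt-/- value passed with the file number as a replicate block (log2 fold change -0.21, edgeR adjusted p = 0.0449). It also passed without fed Nt+/+ mouse 1 (-0.23, edgeR adjusted p = 0.0286), fed Nt-/- mouse 3 (-0.29, 0.0296) or fasted Nt+/+ mouse 5 (-0.23, 0.0454). The Nt+/+ value passed without fasted Nt+/+ mouse 5 (-0.23, edgeR adjusted p = 0.0483). Over all alternatives the adjusted p of Slc16a1 ran from 0.0483 to 0.328 in Nt+/+ and from 0.0286 to 0.164 in Nt-/- mice.

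Slc16a6 encodes MCT7, a transporter known for carrying beta-hydroxybutyrate out of hepatocytes (chr11:109450855-109473598, minus strand, ENSMUSG00000041920). It was 31.4, 34.3, 39.5, 43.4 and 49.1 CPM in fed and 51.7, 77.8, 105, 84.6 and 46.8 CPM in fasted Nt+/+ mice. Fasted mouse 5 lay within the fed range, mouse 1 lay just above it, and the other 3 lay higher. The mean rose from 39.5 ± 7.07 to 73.1 ± 24 CPM, 1.85-fold, with a log2 fold change of 0.89 (SE 0.20, 95% interval 0.47 to 1.30, edgeR adjusted p = 0.00336). Slc16a6 in Nt-/- mice was 40.4, 33.1, 34.2 and 48.0 CPM when fed and 75.5, 103, 130, 104 and 78.2 CPM when fasted. All 5 fasted mice lay above the fed ones. The mean rose from 38.9 ± 6.87 to 98.2 ± 22.4 CPM, 2.52-fold, with a log2 fold change of 1.33 (SE 0.22, 95% interval 0.88 to 1.78, edgeR adjusted p = 0.00018). Within the sets the fasted mouse had more Slc16a6 than its fed partner in 4 of 5 Nt+/+ and 4 of 4 Nt-/- sets. The Nt-/- count follows from the lack of overlap between fed and fasted mice.

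Slc16a6 shares 1052 exon bases with Amz2, a protein-coding gene on the opposite strand, and 48 with Arsg. The values of Slc16a6 are uncertain for that reason, since without strand the reads of such a pair cannot be told apart. Amz2, a metallopeptidase gene, averaged 32.8 CPM in fed and 33 CPM in fasted Nt+/+ mice (log2 fold change 0.01, edgeR adjusted p = 0.943), and 33.2 and 33.1 CPM in Nt-/- mice (0.00, adjusted p = 0.986). Arsg, a lysosomal sulfatase gene, rose from 7.03 to 12.7 CPM in Nt+/+ (log2 fold change 0.85, edgeR adjusted p = 1.32e-05) and from 7.57 to 15 CPM in Nt-/- mice (0.98, adjusted p = 4.85e-06). Whether reads of Amz2 or Arsg entered the counts of Slc16a6 was not tested.

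Bdh2, a cytosolic short-chain dehydrogenase named for activity on beta-hydroxybutyrate (chr3:135281221-135304426, plus strand, ENSMUSG00000028167), had 43 counts over all 19 mice and 0 to 10 counts in a mouse. It had no count in 4 mice, which allows up to 3 counts each, and 3 counts equal 0.0885 to 0.34 CPM across these libraries. A difference in Bdh2 was not detectable at this depth.

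Loss of Nt changed none of the 5 tested genes past the threshold. In fed mice 0 of 5 passed edgeR's test (0.00559% of all tested genes did), 0 had an unadjusted p under 0.05, and DESeq2 called 0. This share is 1 gene, in fed and in fasted mice alike, and the gene is Nts itself. In fasted mice 0 of 5 passed (0.00559% of all genes), DESeq2 called 0, and 1 had an unadjusted p under 0.05. That gene was Slc16a6, at 98.2 CPM in fasted Nt-/- and 73.1 CPM in fasted Nt+/+ mice, a log2 difference of 0.42 (SE 0.20, 95% interval 0.01 to 0.83, edgeR adjusted p = 0.526). The difference became 0.17 when fasted Nt+/+ mouse 5 was grouped by its genotype field, a grouping that its Nts level goes against. Values of the genotypes overlapped for all 5 genes in fed and in fasted mice, whereas 0.694% and 1.56% of all genes did not overlap. For Oxct1 the log2 difference between genotypes was 0.17 (95% interval -0.19 to 0.54) in fed and -0.13 (-0.49 to 0.22) in fasted mice. For Bdh1 it was -0.01 (-0.25 to 0.24) and -0.02 (-0.25 to 0.21), for Acat1 0.08 (-0.11 to 0.26) and 0.06 (-0.12 to 0.24), and for Slc16a1 0.08 (-0.10 to 0.25) and 0.03 (-0.14 to 0.20).

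**Figure D2:**
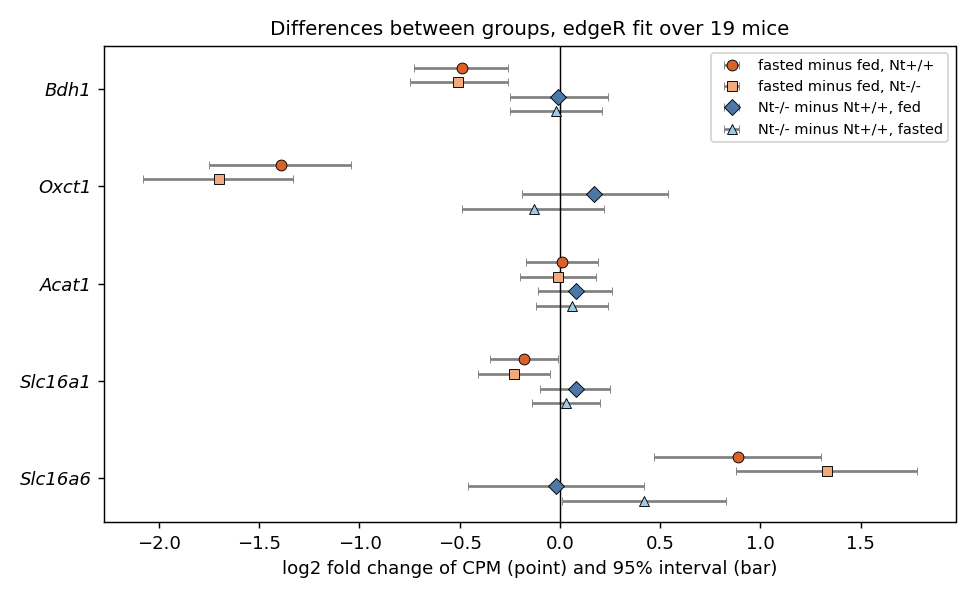
Log2 fold change of CPM (horizontal axis) for the 5 tested genes in 4 comparisons, with the 95% interval of the edgeR fit as a bar. Both fasting intervals lie below 0 for Bdh1 and Oxct1 and above 0 for Slc16a6, while every interval between genotypes includes 0 except that of Slc16a6 in fasted mice, which runs from 0.01 to 0.83.

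Whether the effect of fasting differed between genotypes was tested as an interaction. None of the 5 genes passed (0% of all tested genes did), 0 had an unadjusted p under 0.05 in edgeR, and DESeq2 called 0. The effect in Nt-/- mice minus that in Nt+/+ mice was 0.45 on the log2 scale for Slc16a6 (SE 0.29, 95% interval -0.16 to 1.05, edgeR adjusted p = 1), or 0.19 with fasted Nt+/+ mouse 5 grouped by its genotype field. It was -0.31 for Oxct1 (SE 0.25, -0.82 to 0.20, edgeR adjusted p = 1), -0.02 for Bdh1 (-0.35 to 0.32), -0.02 for Acat1 (-0.28 to 0.24) and -0.05 for Slc16a1 (-0.29 to 0.20). The fasting and genotype comparisons share groups of mice, so their values are not independent of each other.

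Levels of different genes were compared per length, as deposited TPM, in which reads are scaled by transcript length and by library. In fed Nt+/+ mice Bdh1 was highest, at 83 ± 7.76 TPM, followed by Oxct1 at 69.3 ± 9.65, Acat1 at 51.8 ± 4.09, Slc16a1 at 41 ± 3.77, Slc16a6 at 16.9 ± 3.77 and Bdh2 at 0.116 ± 0.123 TPM (SD, n = 5). The ranges of Bdh1 (73 to 92.9 TPM) and Oxct1 (59.7 to 83.2 TPM) overlapped, as did barely those of Acat1 and Slc16a1, and the other neighbours were separate. In fasted Nt+/+ mice the order was Bdh1 at 59.8 ± 10.3, Acat1 at 50.3 ± 4.47, Slc16a1 at 34.6 ± 1.72, Slc16a6 at 31 ± 11.2 and Oxct1 at 27.2 ± 4.74 TPM. Oxct1 thus moved from the second to the fifth place, and all neighbours overlapped except Acat1 and Slc16a1. Fed Nt-/- mice kept the order of fed Nt+/+ mice, with 83 ± 4.79 TPM of Bdh1 and 81.4 ± 20.5 TPM of Oxct1 (n = 4). In fasted Nt-/- mice Bdh1 had 62.4 ± 7.14, Acat1 52.3 ± 4.56, Slc16a6 39.4 ± 10.9, Slc16a1 36.3 ± 4.76 and Oxct1 25.3 ± 4.79 TPM (n = 5). Each gene overlapped its neighbours in that order.

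**Figure D3:**
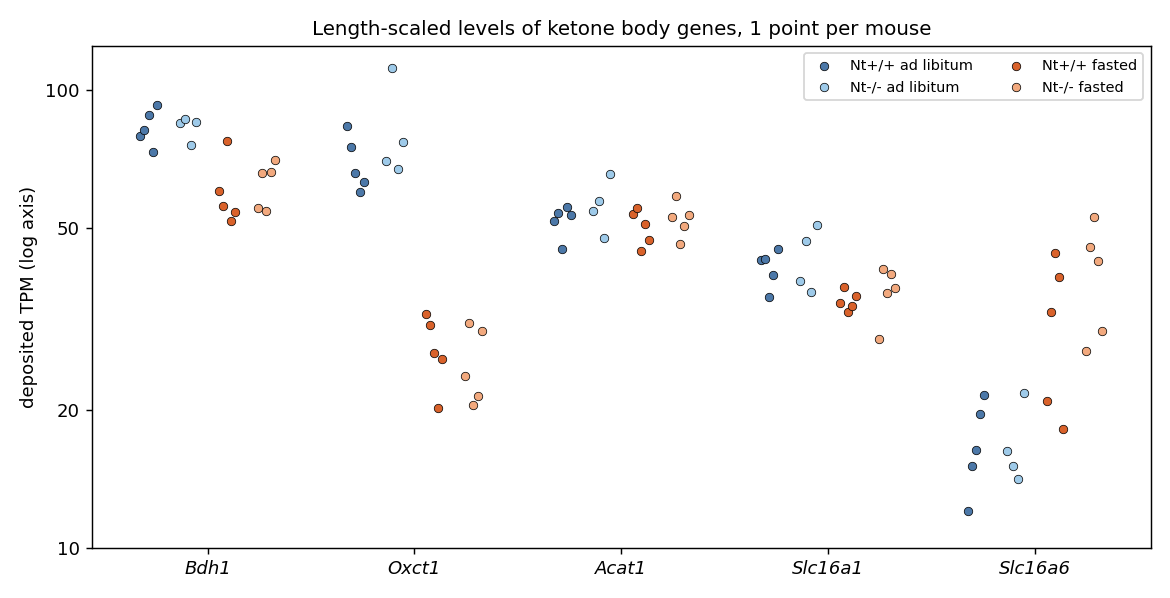
Deposited TPM (log axis) of the 5 tested genes, 1 point per mouse, coloured by group. Oxct1 falls from the second place among the 5 genes to the last.

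Around these genes, 14 further genes of the ketone body pathway and its regulators were listed, and 11 were tested. In each genotype 2 rose and 2 fell with fasting, and the median log2 fold change was -0.26 in Nt+/+ and -0.17 in Nt-/- mice. Of all tested genes 21.6% were called in Nt+/+ and 25.2% in Nt-/- mice. Aacs, the cytosolic enzyme that activates acetoacetate for lipid synthesis, fell by 0.50 on the log2 scale in Nt+/+ (edgeR adjusted p = 0.0266) and by 0.87 in Nt-/- mice (adjusted p = 0.000791). The nuclear receptor genes moved in both directions. Ppara, the fatty acid sensor that drives ketogenic genes in liver, rose by 0.55 and 0.56 on the log2 scale in Nt+/+ and Nt-/- mice, and Pparg rose by 1.15 and 1.47, whereas Ppard fell by 1.08 and 1.28 on that scale (edgeR adjusted p at most 0.00433). Acat2, Acat3, Oxct2a, Oxct2b, Ffar3, Sirt3 and Ppargc1a did not pass in either genotype, and Hmgcll1, Hcar2 and Fgf21 were too low to test. Between genotypes 0 of the 11 passed edgeR's test in fed mice (0 with an unadjusted p under 0.05) and 0 in fasted mice (3 unadjusted).

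**Figure D4:**
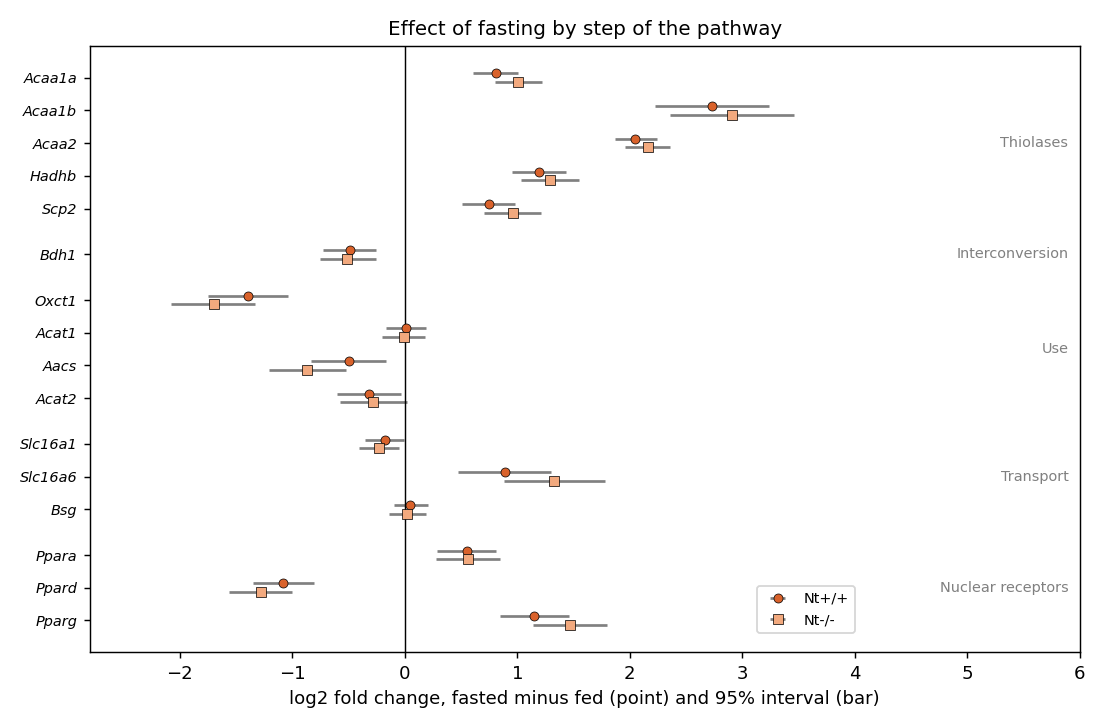
Log2 fold change with fasting (horizontal axis) and its 95% interval in Nt+/+ (circles) and Nt-/- mice (squares), grouped by step of the pathway. The 5 thiolase genes at the top lie above 0, Bdh1, Oxct1 and Aacs lie below 0, and the transporters lie on both sides.

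The other thiolases, which share the reaction type of Acat1 but mostly act in fatty acid oxidation, all rose with fasting. All 5 listed passed in both genotypes, with a median log2 fold change of 1.19 in Nt+/+ and 1.29 in Nt-/- mice, beside 0.01 and -0.01 for Acat1. Of all tested genes 11.2% rose in Nt+/+ and 12.5% in Nt-/- mice. Acaa2, the last enzyme of mitochondrial beta-oxidation, rose from 65.2 to 271 CPM in Nt+/+ (log2 fold change 2.05, edgeR adjusted p = 1.33e-11) and from 69.9 to 313 CPM in Nt-/- mice (2.16, adjusted p = 2.53e-11). The peroxisomal Acaa1b rose by 2.73 and 2.91 on the log2 scale, and Hadhb, Acaa1a and Scp2 rose by 0.75 to 1.29 in the 2 genotypes.

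Acat1 also belongs to the breakdown of branched chain amino acids, and 19 genes of that route were listed. Of the 18 tested, 2 rose and 2 fell in Nt+/+ and 2 rose and 4 fell in Nt-/- mice, with medians of 0.03 and -0.10. Over all tested genes 21.6% and 25.2% were called, so the 4 of 18 in Nt+/+ are near the background share and the 6 of 18 in Nt-/- are not far above it. Aldh6a1 of valine breakdown rose by 0.60 and 0.61 on the log2 scale, Bckdha of the branched chain keto acid dehydrogenase rose by 0.53 and 0.41, and the phosphatase gene Ppm1k fell by 0.75 and 0.84 (edgeR adjusted p at most 0.0162). Hibadh of valine breakdown fell by 0.41 and 0.42 on the log2 scale (edgeR adjusted p at most 0.000197).

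Of 18 further genes of monocarboxylate transport and lactate, 15 were tested. In Nt+/+ mice 6 rose and 2 fell with fasting, and in Nt-/- mice 7 rose and 2 fell, with medians of 0.46 and 0.19. Of all tested genes 21.6% were called in Nt+/+ and 25.2% in Nt-/- mice. Slc5a12, a sodium-coupled carrier, rose from 20.4 to 54.5 CPM (log2 fold change 1.42, edgeR adjusted p = 0.0409) and from 15 to 92 CPM (2.59, adjusted p = 0.00164). Slc16a10, a carrier of aromatic amino acids, rose by 0.63 (edgeR adjusted p = 0.00708) and 0.98 (adjusted p = 0.000326) on the log2 scale. Ldha, lactate dehydrogenase A, fell by 0.42 (edgeR adjusted p = 0.00312) and 0.45 (adjusted p = 0.00203). Bsg, the partner protein that brings MCT1 to the membrane, had log2 fold changes of 0.05 and 0.02 and did not pass (edgeR adjusted p = 0.67 and 0.879). The other called genes of this list are counted above without values.

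Some markers of cell types in the crypt preparation moved with fasting as well. No tested marker of epithelium at large, Paneth, tuft, immune, stromal, endothelial, smooth muscle or red blood cells was called in either genotype. Of 10 villus enterocyte markers, 8 rose in Nt+/+ and 10 rose in Nt-/- mice. Among all tested genes 11.2% rose and 10.4% fell in Nt+/+, and 12.5% rose and 12.6% fell in Nt-/- mice. Their summed level was 4930 to 10200 CPM in fed Nt+/+, 7370 to 10600 in fed Nt-/-, 9630 to 19500 in fasted Nt+/+ and 17200 to 23200 CPM in fasted Nt-/- mice. The 4 markers of dividing cells summed to 1290 to 1530 CPM in fed and 748 to 1180 CPM in fasted mice, with 2 of the 4 lower in Nt+/+ and 3 lower in Nt-/-. Of 4 stem cell markers, Olfm4 fell in Nt+/+ and Olfm4 and Smoc2 fell in Nt-/- mice, and none rose. The other stem cell markers did not pass, with log2 fold changes in Nt+/+ of 0.29 for Lgr5, 0.63 for Ascl2 and -0.27 for Smoc2, and in Nt-/- of -0.02 for Lgr5 and 0.12 for Ascl2, and the median of the 4 was 0.01 and -0.26. Of 4 goblet markers, Clca1 fell in Nt+/+ and Clca1 and Muc2 in Nt-/- mice, while Tff3 (0.13 and 0.03) and Fcgbp (0.17 and 0.16) did not pass in either genotype. Of 3 enteroendocrine markers, Chga rose by 0.39 and 0.42 on the log2 scale (edgeR adjusted p = 0.0212 and 0.0195), and the other 2 did not pass. The part of these shifts in the changes of Oxct1, Bdh1 and Slc16a6 was not tested.

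Fasted Nt+/+ mice 1 and 5 had the lowest villus marker sums of the fasted mice, 9630 and 11000 CPM, of which the first lay within the fed range and the second just above it. Their dividing-cell marker sums of 1140 and 1180 CPM were the highest of the fasted mice and below every fed mouse. Their stem cell marker sums of 1690 and 1800 CPM were also the highest of the fasted mice and lay within the fed range of 1360 to 2570 CPM. Their Oxct1 levels of 59.4 and 54.9 CPM were below the lowest fed mouse at 101 CPM, and were the highest of the fasted Nt+/+ group. Their Bdh1 levels of 103 and 94.1 CPM were also below the lowest fed mouse, at 119 CPM. The highest Bdh1 of the fasted mice, 117 CPM, was in fasted Nt+/+ mouse 3, which had the highest villus marker sum of its group, 19500 CPM. Their Slc16a6 levels of 51.7 and 46.8 CPM were near the highest fed mouse at 49.1 CPM, and the 8 fasted mice with larger villus marker sums had 75.5 to 130 CPM. These 2 mice were singled out after their values were seen.

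**Figure D5:**
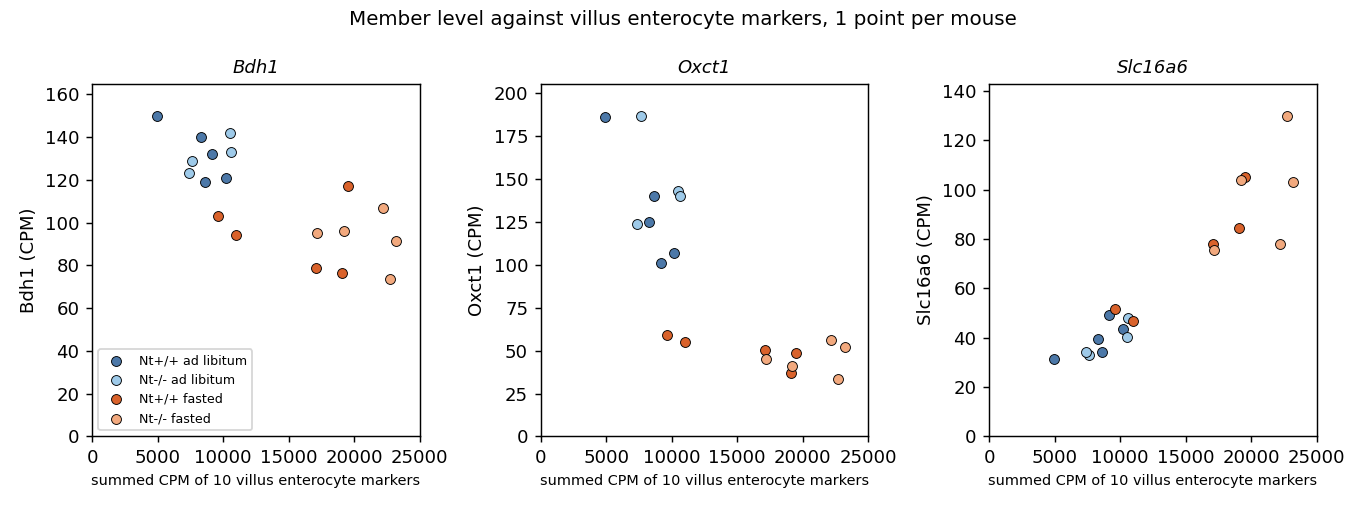
Level of Bdh1, Oxct1 and Slc16a6 in CPM (vertical axes, from 0) against the summed CPM of 10 villus enterocyte markers (horizontal axis), 1 point per mouse, coloured by group. For Slc16a6, the fasted Nt+/+ mouse with a sum of 11000 CPM lies among the fed mice and the one with 9630 CPM lies just above them, and both lie below the fed mice for Oxct1 and Bdh1.

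Over the 19 mice, log2 CPM of Oxct1 and Bdh1 correlated with r = 0.887, and with r = 0.554 once group means were removed. Oxct1 and Slc16a6 correlated with r = -0.905, or -0.65 within groups, and Acat1 with Oxct1 at r = 0.207, or 0.671 within groups. The mice share the split into fed and fasted groups, so these values describe the libraries. Among all tested genes the 3 most like Oxct1 were Gsdmcl2 (r = 0.985), Gsdmc3 (0.978) and Gsdmc2 (0.978), near-identical gasdermin C paralogs whose counts are uncertain because reads can be split among them. The genes most like Slc16a6 were Dgat2 (r = 0.975), Cry2 (0.973) and Ttc39c (0.965), and those most like Bdh1 were Taldo1 (0.949), Mapkapk3 (0.941) and Nup133 (0.94). For Slc16a1 they were Ndufs1 (0.904), Sri (0.871) and Dlat (0.869), and for Acat1 Bcl2l13 (0.872), Aph1a (0.861) and Pdha1 (0.861).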

How the data were processed

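Ribosomal RNA-depleted crypt libraries (single-end reads) were sequenced by the authors, trimmed with Trimmomatic 0.39 and assigned to GRCm38 (Ensembl) transcripts with RSEM. The deposited files give, per mouse and gene, expected counts (estimated reads, not normalized) and TPM, which the authors' RSEM run scaled by transcript length. The aligner and the strand setting are not given in the sources used here. Expected counts were rounded to whole numbers. Of 55487 gene IDs, 55141 matched a symbol, and IDs without a symbol held 0.608% of the counts.

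All 19 mice entered 1 edgeR 4.0.16 (R 4.3.3) quasi-likelihood fit with 1 coefficient per group, trimmed-mean normalization and edgeR's filter on low counts, which kept 17875 genes. The p-values were adjusted over all of these genes, and an adjusted p under 0.05 counted as called. The fit had 15 residual degrees of freedom and a biological coefficient of variation of 18.9%. CPM use the normalized library sizes, with a prior count of 2 for log values. The fit was tested on simulated data with known changes. Groups come from the titles.

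The 6 genes and all lists were chosen with earlier results of these data known. The plan was to give up to 10 genes of each list with values, those called first, then by smallest p. Fewer are given here, so some called genes of the monocarboxylate and branched chain lists are only counted. Bsg was not called and is given as the partner of MCT1. All listed genes were counted. Some genes of the ketone body pathway are not reported here and enter none of its list's counts. Likeness is Pearson's r of log2 CPM over the mice, with the 3 most like genes named. Arsg, Amz2, Gm15743 and BC037032 were added as overlapping genes after the data were seen.

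Same-numbered mice were checked for pairing by the correlation of their deviations from the group means. For the number in the file names 18 of 18 pairs exceeded 0.1 (mean 0.256, lowest 0.117), so these numbers were taken to pair the mice. The mean for different numbers was -0.064, which is no separate evidence, since deviations within a group cancel. The pairing entered the set comparisons and an alternative fit, whereas the main fit held no replicate block. For the number in the titles 14 of 18 pairs did (lowest -0.065). Mice that share a file number and have a sex label are of 1 sex, and the check was not adjusted for sex.

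Alternatives were no count filter, edgeR's own relative log expression normalization, the DESeq2 1.42.0 test and each number as a replicate block. Further ones were sex as a covariate, only the groups compared, leaving out each mouse, and grouping 1 mouse by its genotype field. Leaving out the 2 mice with the lowest counts, and limma 3.58.1 on log2(TPM + 1), were added after the data were seen. Counting intervals and floors cover counting error only.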

Additional observations from a re-analysis of the deposited data

Results flagged for a closer look

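1 value was singled out because it lay far from the other mice of its group. Bdh2 was 0.528 CPM (10 counts) in fasted Nt-/- mouse 5, whereas the other 4 fasted Nt-/- mice had 0 to 0.116 CPM, so that the gap was 0.781 of the range of the group. This was 1 of 24 groups of 4 or 5 mice examined over the 6 genes, and chance singles out about 1 in 20 such groups.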

How the results depend on the processing

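Under 29 alternatives Bdh1 and Oxct1 stayed lower and Slc16a6 higher with fasting, each past the threshold in both genotypes, and 3 or 4 of the 5 genes were called. The log2 fold change ran from -1.48 to -1.24 in Nt+/+ and -1.80 to -1.57 in Nt-/- mice for Oxct1, from -0.58 to -0.43 and -0.56 to -0.41 for Bdh1, and from 0.72 to 1.01 and 1.16 to 1.45 for Slc16a6. Between genotypes and for the interaction, 0 of the 5 genes were called under every alternative. Over 720 values of single genes, 658 kept their direction and side of the threshold, 6 passed it newly (all Slc16a1) and 56 changed sign. All that changed sign were uncalled values near 0, and the cause was not tested.

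With the file number as a replicate block 3 genes were called in Nt+/+ and 4 in Nt-/- mice, the fourth being Slc16a1. The title block gave 3 and 4 as well, with Slc16a1 in Nt-/- mice at -0.25 (edgeR adjusted p = 0.0302), and the block changed no other call. The file block turned Acat1 to 0.01 for fasting in Nt-/- mice and to 0.00 for the interaction, and Bdh1 and Slc16a6 to 0.01 and 0.08 for genotype in fed mice, where the title block gave 0.02 for Bdh1.

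Acat1 with fasting became -0.01 in Nt+/+ mice with 1 mouse grouped by its genotype field and -0.04 with limma on TPM. In Nt-/- mice it became 0.01 with relative log expression normalization, 0.01 with DESeq2 and 0.00 with only the groups compared. Without the 2 mice with the lowest counts it became 0.03, a setting that made its interaction 0.02. Genotype in fed mice became 0.00 for Bdh1 without a filter, 0.00 with limma on TPM, and 0.02 for Slc16a6 with sex as a covariate. Limma gave Bdh1 0.07 for genotype in fasted mice, and 0.06 for Bdh1 and 0.00 for Slc16a1 as interactions. The interaction became 0.01 for Acat1 and 0.03 for Slc16a1 with the mouse regrouped.

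Leaving out 1 mouse at a time gave Acat1 -0.03 to 0.06 for fasting in Nt+/+, -0.07 to 0.06 in Nt-/-, -0.01 to 0.12 for genotype in fasted mice and -0.08 to 0.04 for the interaction. It gave Bdh1 -0.05 to 0.04 and -0.09 to 0.07 for genotype in fed and fasted mice and -0.08 to 0.08 for the interaction, Slc16a1 -0.01 to 0.08 for genotype in fasted mice and -0.12 to 0.00 for the interaction, and Slc16a6 -0.14 to 0.07 for genotype in fed mice.

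Of all genes, limma on TPM called 2416 with fasting in Nt+/+ and 2917 in Nt-/- mice, against 3862 and 4499. For genotype, 1 gene was called in each state, against 3 and 101 with DESeq2, 0 and 0 with the mouse regrouped, and 4 in fasted mice without fasted Nt-/- mouse 1.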
